A study of Mus musculus with 12 samples.

Results

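The 9 genes described here belong to the type I interferon response: the transcription factors Stat2, Irf9 and Irf7, the ubiquitin-like modifier Isg15, and the antiviral effectors Ifit1, Ifit3, Oasl2, Rsad2 and Bst2. They were taken by gene name from the 44345 gene names in the count table, and the choice was made with earlier results of these data known. All 9 were among the 16238 genes with enough reads to be tested. RNA was sequenced from intact dorsal root ganglia (DRG), the clusters of sensory neurons, glia and resident immune cells beside the spinal cord, taken at L4 to L6, where the cell bodies of the sciatic nerve lie. C57BL/6 mice aged 5 to 8 weeks lived for 10 days in standard housing (SH) or in an enriched environment (EE), then had a sham operation (Sham) or a sciatic nerve axotomy (SNA), and ganglia were collected 24 h later. Each housing gave a Sham and an SNA group, SH Sham with SH SNA and EE Sham with EE + SNA, and each of these 4 groups held 3 samples, and each sample pooled the ganglia from both sides of 2 mice. Whether the axotomy was done on both sides is not given in the sources used here. The study took its EE Sham data from a dataset it had described earlier, so a difference in handling of that group and an effect of EE without injury cannot be told apart. The same limit holds for EE + SNA against EE Sham, for comparisons averaged over housing or surgery, and for the interaction of housing and surgery.

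Type I interferons are secreted proteins that bind a receptor made of IFNAR1 and IFNAR2. The receptor's kinases JAK1 and TYK2 phosphorylate STAT proteins, among them STAT2, which joins IRF9 in a complex, ISGF3, that enters the nucleus and binds the interferon-stimulated response element (ISRE) near its target genes. Many targets block viral replication, and some, such as Irf7, Stat2 and Irf9, feed the response itself. In sensory ganglia, neurons, satellite glia and macrophages can all carry the receptor and express such genes at a resting level.

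The ISRE is the sequence these genes are best known to share, so RefSeq promoters (GRCm38.p6, from 250 bases before to 50 bases after a gene's start) were searched for GAAANNGAAA on both strands (TTTCNNTTTC when read on the other). It was present in the promoters of 6 of the 9 genes (66.7%), in those of 19 of 46 other interferon-stimulated genes with a promoter in the table (41.3%), and in 3.65% of 11122 tested genes and 3.44% of all 32851 promoters. Oasl2, Irf7 and Irf9 had no such letters in these windows. Matches to these letters are not known binding sites, and binding of ISGF3 at these positions was not tested. The 30-base stretches below hold the matches in capitals, written 5′ to 3′ on each gene's own strand.
Ifit1: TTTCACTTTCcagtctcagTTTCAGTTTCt
Ifit3, distal: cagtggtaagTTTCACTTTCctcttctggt
Ifit3, proximal: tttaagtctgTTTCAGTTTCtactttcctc
Isg15: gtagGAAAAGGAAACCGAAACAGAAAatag
Bst2: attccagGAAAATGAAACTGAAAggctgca
Stat2: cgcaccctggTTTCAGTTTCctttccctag
Rsad2: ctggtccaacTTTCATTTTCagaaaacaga
The Ifit1 stretch lies at chr19:34640785-34640814 (+) and those of Ifit3 at chr19:34583363-34583392 and chr19:34583397-34583426 (+). The Isg15 stretch lies at chr4:156200871-156200900 (-), that of Bst2 at chr8:71537580-71537609 (-), that of Stat2 at chr10:128270266-128270295 (+) and that of Rsad2 at chr12:26456553-26456582 (-). The RefSeq start used for Stat2 lies upstream of the GENCODE gene start given below. The windows searched for Irf9 lie downstream of its GENCODE gene start, so the bases before that start were not searched. Isg15 held 3 overlapping matches, Bst2 2 overlapping matches, and Ifit1 2 matches side by side. A second element, the GAS letters TTCNNNGAA known from interferon gamma target genes, matched the promoter of 1 of the 9 genes, Bst2, against 8.3% of all promoters.

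The libraries held between 11343579 and 22871460 reads on named genes, and TMM scaling factors lay between 0.978 and 1.017. Values below are CPM, a gene's count relative to its library's reads on genes after TMM scaling, and "called" means a Benjamini-Hochberg adjusted P-value under 0.05 over all 16238 genes in edgeR's quasi-likelihood test. Atf3, a transcription factor that axotomised sensory neurons switch on, stood at 110 to 168 CPM in the 6 Sham pools and at 453 to 548 CPM in the 6 SNA pools, and so followed the injury labels. Markers of sensory neurons summed to between 8840 and 10300 CPM and those of satellite glia and Schwann cells to between 6930 and 12600 CPM, so both kinds of ganglion cell were represented in every pool. The EE Sham pools stood apart for the genes described here: EE Sham replicate 1 was the lowest of the 12 samples in 6 of the 9, and EE Sham replicate 2 was the highest in 3. The median coefficient of variation of the 9 genes was 24% in EE Sham, against 10.3% in SH Sham, 8.6% in SH SNA and 7.62% in EE + SNA, whereas over all genes it was 9.02%, 7.68%, 7.95% and 8.02% in the same order. Results that rest on EE Sham are therefore given with and without these pools.

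All 9 genes were read in every sample, with the lowest count at 41 reads for Isg15. On the length-corrected FPKM scale of the deposited table, Ifit1 had the highest mean level over the 12 samples, 23.0 ± 4.99 (SD), followed by Stat2 at 18.7 ± 1.52, Oasl2 at 17.3 ± 2.09 and Bst2 at 15.5 ± 3.05. Each of these neighbours differed by less than the larger of their SDs. Ifit3 at 10.0 ± 1.19 and Isg15 at 7.66 ± 1.88 formed the middle of the order. Rsad2 at 4.03 ± 0.96 and Irf9 at 3.73 ± 0.357 did not differ beyond their spread, and Irf7 was lowest at 2.53 ± 0.46. The level of Ifit3 is uncertain, because 31.7% of the 100-base stretches of its transcripts were identical in Ifit3b, whose values were not analysed here, and reads that aligned to more than 1 place were left out by the counting program. The same share was 3.29% for Ifit1 with Ifit1bl2 and at most 0.411% for the other 7 genes.

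After SNA in standard housing, all 9 genes had a positive log2 fold change over SH Sham, against 50.5% of all genes, and 2 of them, Ifit1 and Rsad2, were called. The median change of the 9 was 0.27 on the log2 scale, where the median of all genes was 0.00. At the unadjusted P-value of 0.05 that the study used, 7 of the 9 were higher and none lower, and without SH SNA replicate 2 the number was 4. Among all genes, 11.2% were called and 25.2% passed the unadjusted threshold in either direction. After SNA in the enriched environment, all 9 genes again lay above SH Sham, against 51.2% of all genes, with a median log2 fold change of 0.20 (all genes 0.01). Of these, 3 genes were called, Rsad2, Ifit1 and Stat2, and 4 passed the unadjusted threshold, where 12.4% and 27.1% of all genes did so. The 2 comparisons share the SH Sham pools, so they are not independent of each other. The second differs in housing as well as in surgery, so it does not give the effect of SNA alone. EE + SNA against EE Sham, where housing was the same, called none of the 9 and is described below. Because whole ganglia were sequenced, fewer cells of a type and less RNA per cell cannot be told apart in any value given here.

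**Figure D1:**
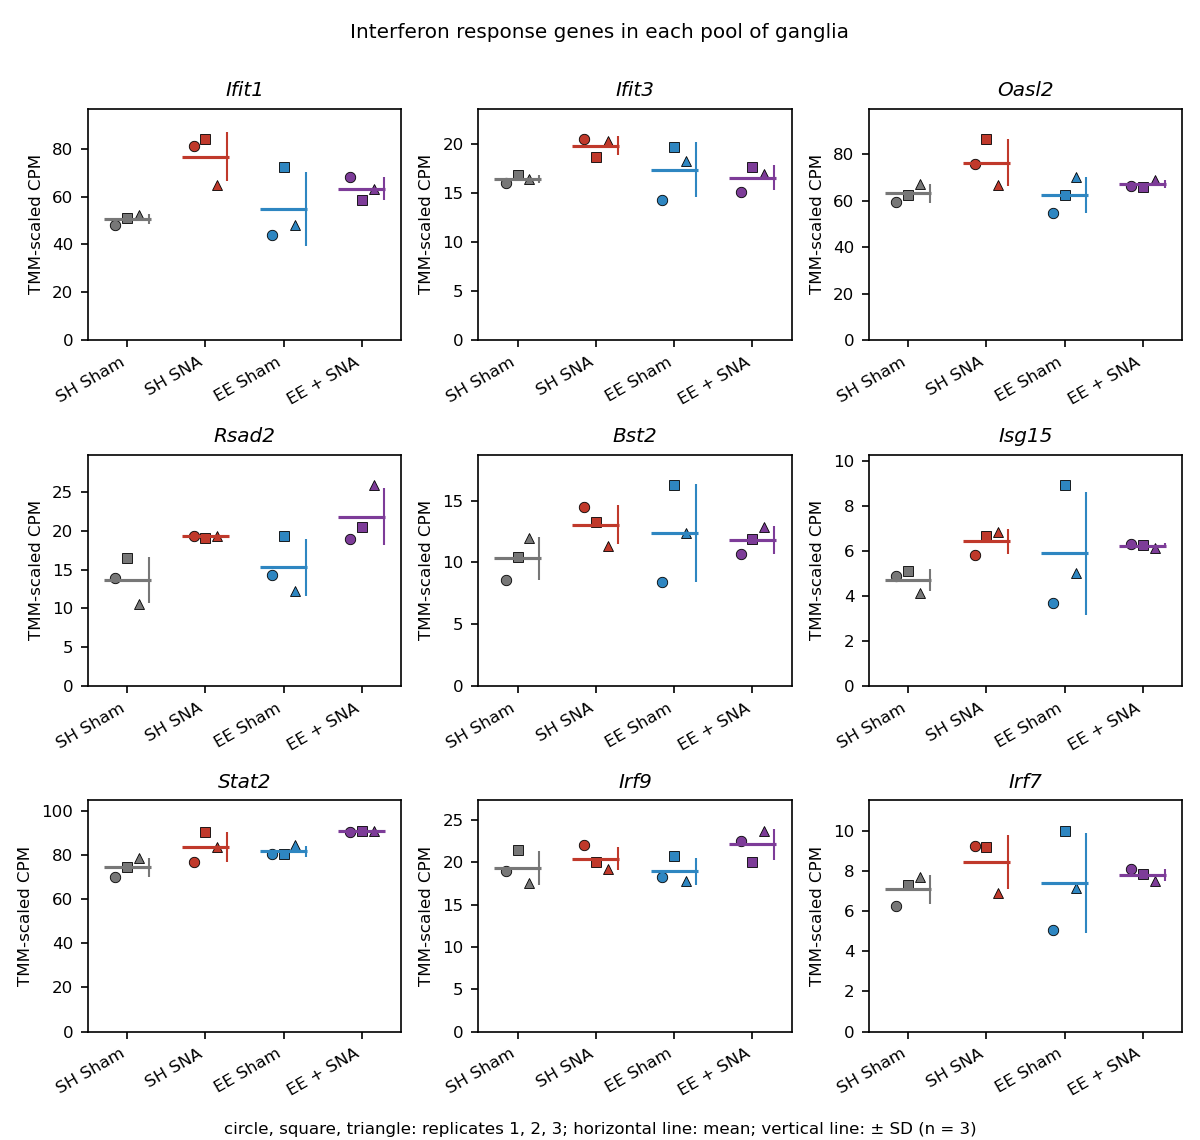
Each panel shows 1 gene, with the 4 groups on the horizontal axis and TMM-scaled CPM from 0 on the vertical axis. Circles, squares and triangles are replicates 1, 2 and 3, the horizontal line is the mean and the vertical line ± SD (n = 3). The SH SNA pools lie above all SH Sham pools for Ifit1, Ifit3, Rsad2 and Isg15, and the EE Sham pools are spread widely for Isg15, from 3.70 to 8.95 CPM.

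Among the transcription factors, Stat2, the STAT subunit that is particular to the type I and type III interferon pathways, was the one that was called. Stat2 (ENSMUSG00000040033, chr10:128270559-128292849, +) stood at 69.9, 74.5 and 78.8 CPM in SH Sham, 76.8, 90.4 and 83.4 in SH SNA, 80.2, 80.3 and 84.5 in EE Sham, and 90.2, 91.1 and 90.7 in EE + SNA. The EE + SNA pools were close together and lay above every SH Sham and EE Sham pool, while 2 of the 3 SH SNA pools lay above all SH Sham pools. Stat2 rose by 0.29 ± 0.06 (log2, SE) from SH Sham to EE + SNA (adjusted P = 0.0111), a call that held under every alternative run for it. Its change in SH SNA was 0.17 ± 0.07 (adjusted P = 0.158).

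Irf9, the DNA-binding subunit of ISGF3, was not called in any comparison. Irf9 (ENSMUSG00000002325, chr14:55603571-55610030, +) was measured at 18.9, 21.5 and 17.5 CPM in SH Sham, 22, 20.1 and 19.2 in SH SNA, 18.3, 20.7 and 17.8 in EE Sham, and 22.5, 20.1 and 23.8 in EE + SNA. Both SNA groups overlapped with SH Sham, with log2 fold changes of 0.08 ± 0.10 in SH SNA (adjusted P = 0.664) and 0.19 ± 0.10 in EE + SNA (adjusted P = 0.255). Its exons share 123 bases with those of Rnf31 on the same strand. Irf7, the factor that amplifies interferon production after a first wave of signaling, was the gene with the lowest FPKM. Irf7 (ENSMUSG00000025498, chr7:141262706-141266481, -) stood at 6.27, 7.31 and 7.68 CPM in SH Sham, 9.24, 9.20 and 6.92 in SH SNA, 5.05, 10.0 and 7.14 in EE Sham, and 8.09, 7.82 and 7.49 in EE + SNA. SH SNA replicate 3 fell within the range of SH Sham, and the log2 fold changes of 0.26 ± 0.14 (adjusted P = 0.298) and 0.14 ± 0.13 (adjusted P = 0.54) were not called. Irf7 shares 45 exon bases with Phrf1 on the opposite strand, and the strand setting of the counting is not given in the sources used here.

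Isg15, the modifier that is joined to many proteins during an interferon response, was higher in all 3 pools of both SNA groups than in all SH Sham pools, but was not called. Isg15 (ENSMUSG00000035692, chr4:156199424-156200818, -) stood at 4.86, 5.09 and 4.14 CPM in SH Sham, 5.81, 6.67 and 6.84 in SH SNA, 3.70, 8.95 and 5.03 in EE Sham, and 6.31, 6.26 and 6.12 in EE + SNA. The log2 fold change was 0.45 ± 0.14 in SH SNA (adjusted P = 0.064) and 0.41 ± 0.14 in EE + SNA (adjusted P = 0.0877), both past the unadjusted threshold. With limma on the log2 FPKM values, Isg15 passed the adjusted threshold in both, at 0.0326 and 0.035 with a pseudocount of 1.

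Of the effectors, Ifit1, which binds viral RNA that lacks the host's cap marks and blocks its translation, had the smallest adjusted P-value of the 9 in SH SNA. Ifit1 (ENSMUSG00000034459, chr19:34640871-34650009, +) stood at 48.2, 50.9 and 52.4 CPM in SH Sham, 81.0, 84.2 and 65.0 in SH SNA, 43.7, 72.6 and 48.1 in EE Sham, and 68.3, 58.6 and 63.0 in EE + SNA. Every pool of both SNA groups lay above every SH Sham pool, and SH SNA replicates 1 and 2 were the highest of the 12 samples. Ifit1 rose 1.52-fold in SH SNA (log2 0.60 ± 0.09, adjusted P = 0.00083) and by less in EE + SNA (log2 0.32 ± 0.07, adjusted P = 0.0112). The first call held under every alternative, and the second was lost without EE + SNA replicate 1 (adjusted P = 0.0569) and with all 12 samples in 1 fit (adjusted P = 0.15).

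Rsad2, which encodes viperin, an enzyme that makes a chain-terminating nucleotide, had the largest change of the 9 in EE + SNA. Rsad2 (ENSMUSG00000020641, chr12:26442746-26456452, -) stood at 14.0, 16.6 and 10.6 CPM in SH Sham, 19.4, 19.2 and 19.4 in SH SNA, 14.3, 19.4 and 12.3 in EE Sham, and 19.03, 20.6 and 26 in EE + SNA. All 6 SNA pools lay above the SH Sham pools, and SH SNA had the narrowest spread. Rsad2 rose 1.41-fold in SH SNA (log2 0.50 ± 0.13, adjusted P = 0.0324) and 1.59-fold in EE + SNA (log2 0.67 ± 0.15, adjusted P = 0.0123). The SH SNA call was lost without SH Sham replicate 1 or 3 or SH SNA replicate 1 or 3 (adjusted P from 0.0707 to 0.0837), although the log2 fold change stayed between 0.345 and 0.649 across all alternatives. It was also lost with all 12 samples in 1 fit (0.0701) and in both limma fits of log2 FPKM (adjusted P = 0.0769 and 0.0766). The EE + SNA call was lost under a replicate block (adjusted P = 0.0524) and in both limma fits (adjusted P = 0.0548 and 0.0538).

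Ifit3, a partner of the other IFIT proteins in RNA binding, was higher in all 3 SH SNA pools than in all SH Sham pools but overlapped with SH Sham in EE + SNA. Ifit3 (ENSMUSG00000074896, chr19:34583531-34588731, +) stood at 16.0, 16.8 and 16.4 CPM in SH Sham, 20.5, 18.7 and 20.3 in SH SNA, 14.2, 19.6 and 18.2 in EE Sham, and 15.1, 17.6 and 16.9 in EE + SNA. Its log2 fold change was 0.27 ± 0.09 in SH SNA (adjusted P = 0.0699) and 0.02 ± 0.09 in EE + SNA (adjusted P = 0.924). Oasl2, a member of the oligoadenylate synthetase family, showed values of 59.5, 62.7 and 67.4 CPM in SH Sham, 75.9, 86.7 and 66.6 in SH SNA, 54.5, 62.6 and 70.3 in EE Sham, and 66.3, 66.2 and 69.1 in EE + SNA (ENSMUSG00000029561, chr5:114896936-114912234, +). The SH SNA and SH Sham pools of Oasl2 overlapped through SH SNA replicate 3, and the log2 fold changes were 0.27 ± 0.09 (adjusted P = 0.0636) and 0.09 ± 0.07 (adjusted P = 0.425). In SH SNA, Oasl2 was called by DESeq2 (adjusted P = 0.0445), by the likelihood ratio test (0.0474) and without a filter on low counts (0.00259). Bst2, the membrane protein tetherin that holds budding virus on the cell surface, stood at 8.56, 10.5 and 12.02 CPM in SH Sham, 14.5, 13.3 and 11.4 in SH SNA, 8.38, 16.3 and 12.4 in EE Sham, and 10.7, 11.9 and 12.9 in EE + SNA (ENSMUSG00000046718, chr8:71534255-71537456, -). Both SNA groups of Bst2 overlapped with SH Sham, with log2 fold changes of 0.34 ± 0.14 (adjusted P = 0.15) and 0.20 ± 0.13 (adjusted P = 0.38).

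The groups did not overlap in 4 of the 9 genes in SH SNA (Ifit1, Ifit3, Rsad2 and Isg15) and in 4 of the 9 in EE + SNA (Ifit1, Rsad2, Isg15 and Stat2), each time with SNA higher. Over all genes, the pools of the SNA group were all higher than those of SH Sham in 14.3% of genes for SH SNA and in 16.1% for EE + SNA. Averaged over housing, with all 12 samples in the fit, SNA against Sham called 3 genes, all higher: Rsad2 (log2 0.50 ± 0.12, adjusted P = 0.00593), Ifit1 (0.40 ± 0.10, adjusted P = 0.0082) and Stat2 (0.16 ± 0.05, adjusted P = 0.0216). Oasl2 missed the threshold narrowly (0.19 ± 0.07, adjusted P = 0.0539) and was the fourth past the unadjusted one. It was called by DESeq2 (adjusted P = 0.0498), by the likelihood ratio test (0.0408), without a filter (0.00383), with at least 10 counts in every sample (0.0475) and under a replicate block (0.0484). All 9 were positive with a median of 0.16, and among all genes 21.1% were called and 34.2% passed the unadjusted threshold. Without EE Sham replicate 2, 8 of the 9 passed the unadjusted threshold and 4 were called, Isg15 being added (adjusted P = 0.00599), and without EE Sham replicate 1 the counts were 4 and 3. The Stat2 call was lost without SH Sham replicate 1 (adjusted P = 0.0586) or SH SNA replicate 2 (adjusted P = 0.0683).

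**Figure D2:**
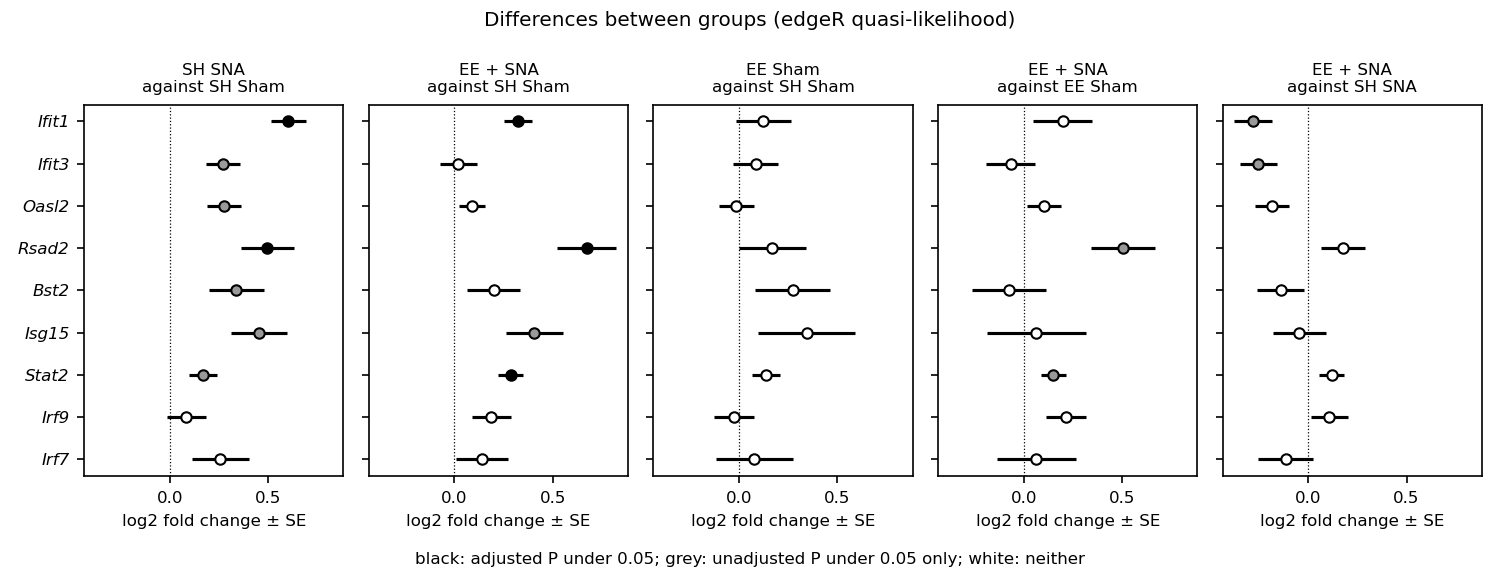
Each panel is 1 comparison and each row 1 gene, and points give the log2 fold change with bars of ± SE from edgeR's quasi-likelihood fit on 3 against 3 pools. Black points have an adjusted P-value under 0.05, grey points an unadjusted one only, white points neither. All points lie right of 0 in the first 2 panels, whereas both grey points of the last panel, Ifit1 and Ifit3, lie left of it.

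No change in these genes was detected after enriched housing without injury. EE Sham against SH Sham called none of the 9 in edgeR's quasi-likelihood test, in DESeq2 or in the likelihood ratio test, and none passed the unadjusted threshold, although 2 did without EE Sham replicate 1 and 1 without SH Sham replicate 3. Among all genes, 0.00616% (1 gene, Zbtb16) were called and 2.96% passed the unadjusted threshold, and a replicate block raised the number called to 28, none of them among the 9. Log2 fold changes ranged from -0.03 for Irf9 to 0.34 for Isg15, with a median of 0.12. The standard error for Isg15 was 0.25, since the 3 EE Sham pools lay both below and above the range of SH Sham. Without EE Sham replicate 2 the changes of Ifit1, Ifit3, Rsad2, Isg15 and Irf7 turned negative, and without EE Sham replicate 1 that of Oasl2 turned positive. Stat2 was the 1 gene of the 9 whose EE Sham pools all lay above SH Sham (log2 0.14 ± 0.07, adjusted P = 1).

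Within the enriched environment, EE + SNA against EE Sham called none of the 9 in edgeR's quasi-likelihood test or DESeq2 and 1, Rsad2, in the likelihood ratio test (adjusted P = 0.0442). The quasi-likelihood test called 4.77% of all genes and the likelihood ratio test 1266 genes. Rsad2 (log2 0.50 ± 0.16, adjusted P = 0.101) and Stat2 (0.15 ± 0.06, adjusted P = 0.195) passed the unadjusted threshold, which 20.4% of all genes did. Without EE Sham replicate 2, Ifit1 (adjusted P = 0.0132) and Rsad2 (adjusted P = 0.0185) were called, and 4 genes passed the unadjusted threshold. Without EE Sham replicate 1, none were called and 1 gene passed the unadjusted threshold, and 1 gene also did so without EE + SNA replicate 1 or 3. The median change was 0.10.

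Between the injured groups, 6 of the 9 genes were measured lower after EE + SNA than after SH SNA, with a median log2 fold change of -0.12 over the 9. None of the 9 was called in edgeR's quasi-likelihood test, the likelihood ratio test or DESeq2, where 0% of all genes were called in the first of these. Ifit1 was lower by a log2 fold change of -0.28 ± 0.09 (adjusted P = 0.989) and Ifit3 by -0.25 ± 0.09 (adjusted P = 0.989), with all 3 EE + SNA pools of Ifit3 below all SH SNA pools. These 2 of the 9 passed the unadjusted threshold, against 4.1% of all genes. Oasl2 just missed it (-0.19 ± 0.08). Bst2 (-0.14 ± 0.12), Irf7 (-0.12 ± 0.14) and Isg15 (-0.05 ± 0.14) were also lower and did not pass the unadjusted threshold. Rsad2 (0.18 ± 0.11), Stat2 (0.12 ± 0.06) and Irf9 (0.11 ± 0.09) had values of the opposite sign, and none of these passed the unadjusted threshold. The count of 2 dropped to 0 without SH SNA replicate 1 and to 1 without EE + SNA replicate 2.

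Averaged over surgery, EE against SH called none of the 9 in edgeR or DESeq2, with 0% of all genes called in edgeR's quasi-likelihood test. Stat2 alone passed the unadjusted threshold (0.13 ± 0.05, adjusted P = 1), as 4.54% of all genes did, and 2 genes did so without SH SNA replicate 3, EE Sham replicate 2 or EE Sham replicate 3. The interaction, which asks whether the change after SNA differed between housing conditions, called none of the 9 and 0% of all genes in that test, and DESeq2 called none of the 9. Ifit3 (-0.34 ± 0.15, adjusted P = 1) passed the unadjusted threshold, which 2.61% of all genes did, and Ifit1 came next (-0.41 ± 0.20), just above it. The median interaction of the 9 was -0.19. The count depended on single pools, since 4 genes passed the unadjusted threshold without EE Sham replicate 1, and none without EE Sham replicate 2, EE + SNA replicate 3, SH SNA replicate 1 or any 1 of the SH Sham pools. That the change of Ifit3 or Stat2 after injury differed between SH and EE was thus not shown.

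**Figure D3:**
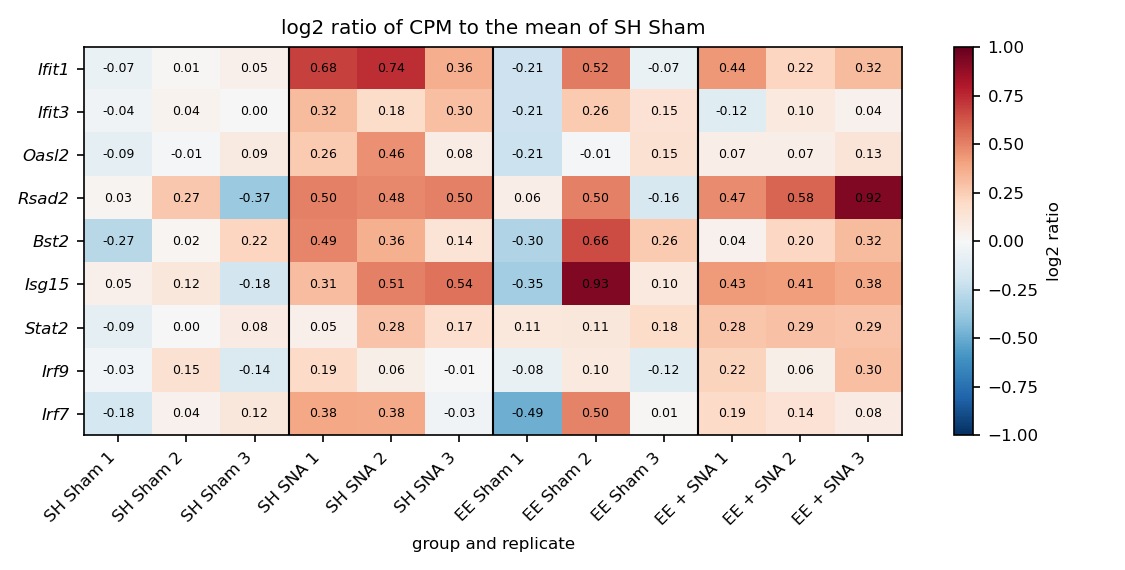
Rows are the 9 genes and columns the 12 pools, and each cell gives the log2 ratio of the pool's CPM to the mean CPM of SH Sham, on a color scale from -1 to 1. EE Sham replicate 1 is lowest in 6 rows, EE Sham replicate 2 is highest in Bst2, Isg15 and Irf7, and the EE + SNA pools differ little in Isg15 and Stat2.

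Over all 12 samples the genes varied together among pools of the same group, but this rested on EE Sham replicates 1 and 2. After group means were removed, the median Pearson correlation over the 36 pairs of the 9 genes was 0.418 across 12 samples, and 31 pairs were positive. It was 0.266 between the 9 genes and 49 other interferon-stimulated genes and -0.0203 between the 9 and all other genes. The closest pairs were Ifit1 with Irf7 (r = 0.921) and Bst2 with Irf7 (r = 0.913), while Stat2 and Irf9, which act in the same complex, gave -0.418. These values share libraries and are given as a description. They rest on the EE Sham pools: without EE Sham replicates 1 and 2 the median over 10 samples was 0.0657, and 19 of the 36 pairs were positive. The 5 genes outside the 9 whose pattern was most like their mean, among 15331 genes with at least 1 CPM on average, were Thsd1 (r = 0.958, Spearman's rho = 0.909), Imp3 (r = 0.955, rho = 0.867), Trafd1 (r = 0.951, rho = 0.923), Crym (r = 0.95, rho = 0.902) and Ndufa8 (r = 0.95, rho = 0.909). High r values were selected for here, since these 5 genes had the largest r of the 15331. Without EE Sham replicates 1 and 2, r lay between 0.852 and 0.895 for them. The 10 samples left had also served to choose the 5 genes, so this is not an independent check.

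Almost no reads were counted for the ligands themselves. Of 19 listed interferon genes in the table, 16 had no read in any of the 12 samples, Ifnb1 and every listed Ifna gene included. The other 3, Ifng, Ifnz and Ifnab, had 5 reads in all, out of 166623115. A count of 0 over all samples allows a level of up to 0.018 CPM, which covers counting error only. It does not cover reads that aligned to more than 1 place, which the counting program left out. How much sequence the interferon genes share with each other was not analysed here. The receptor genes were expressed, with Ifnar1 at 55.9 CPM and Ifnar2 at 13 CPM on average, and none of 6 receptor genes was called after SNA. For Ifnar1 the averaged log2 fold change was -0.04 ± 0.04 (adjusted P = 0.628), and for Ifnar2 it was -0.02 ± 0.07 (adjusted P = 0.907).

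Among 14 genes of interferon signal transduction, 4 rose in SNA against Sham averaged over housing, in which 21.1% of all genes were called. Socs3, a feedback inhibitor of JAK kinases, rose by 0.48 ± 0.07 on the log2 scale (adjusted P = 0.000132), Ptpn2, a phosphatase that acts on JAKs and STATs, by 0.33 ± 0.08 (adjusted P = 0.00569), the kinase Jak2 by 0.19 ± 0.05 (adjusted P = 0.012) and Stat3 by 0.14 ± 0.04 (adjusted P = 0.0224). The phosphatase Ptpn6 was called in EE + SNA against SH Sham (0.65 ± 0.17, adjusted P = 0.0289). Over the list, 1 gene was called higher in SH SNA and 4 in EE + SNA, with median changes of 0.02 and 0.09. The shares of all genes called there were 11.2% and 12.4%.

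Of 21 genes that sense nucleic acids or relay that signal, 5 rose and 1 fell in the averaged comparison, in which 21.1% of all genes were called. Aim2, a sensor of cytosolic DNA that forms an inflammasome, rose by 1.73 ± 0.20 (adjusted P = 1.04e-05), from 0.801 to 1.98 CPM in Sham pools to 3.13 to 5.64 in SNA pools. The adaptor Ticam1 rose by 0.37 ± 0.07 (adjusted P = 0.00183), Samhd1, which degrades deoxynucleotides, by 0.24 ± 0.05 (adjusted P = 0.00277), the RNA sensor Tlr7 by 0.47 ± 0.14 (adjusted P = 0.0275) and its adaptor Myd88 by 0.21 ± 0.07 (adjusted P = 0.0484). Traf3, an adaptor needed for interferon induction, fell by 0.21 ± 0.04 (adjusted P = 0.00138). In the list, 3 genes were called higher in SH SNA, and in EE + SNA 4 were higher and 1 lower. The shares of all genes called there were 11.2% and 12.4%.

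Other interferon-stimulated genes had positive changes at the median, with 1 gene called lower. Of 52 tested, 5 rose and 1 fell in SH SNA, 5 rose and 1 fell in EE + SNA, and 8 rose and 1 fell averaged over housing, with medians of 0.20, 0.22 and 0.18. Over all genes, 11.2%, 12.4% and 21.1% were called in the same comparisons, and the list's counts are near or below these shares. Slfn9, of the schlafen family, rose most (1.48 ± 0.18, adjusted P = 1.84e-05), and Isg20, an RNA exonuclease, rose by 0.72 ± 0.22 (adjusted P = 0.025). The antiviral GTPase Mx2 (0.57 ± 0.12, adjusted P = 0.00181), Trim30a (0.50 ± 0.14, adjusted P = 0.0156), Ifitm1, which blocks viral entry (0.49 ± 0.12, adjusted P = 0.00953), Ifi35 (0.37 ± 0.07, adjusted P = 0.00103) and Ly6e (0.28 ± 0.08, adjusted P = 0.0175) rose less. Cmpk2, a mitochondrial nucleotide kinase, fell by 0.49 ± 0.08 (adjusted P = 0.000208). Cmpk2 (chr12:26469204-26479837, +) is the neighbor of Rsad2, 12751 bp away on the opposite strand, and was called lower in both SH SNA (-0.46 ± 0.09, adjusted P = 0.00631) and EE + SNA (-0.46 ± 0.10, adjusted P = 0.0137), where Rsad2 was called higher. Its pools lay between 24.9 and 28.7 CPM in the Sham groups and between 15.3 and 20.3 in the SNA groups, with no overlap. Of 20 tested genes that lean towards interferon gamma, 3 rose in the averaged comparison, in which 21.1% of all genes were called. They were the GTPases Igtp (0.25 ± 0.05, adjusted P = 0.00127), Gbp2 (0.32 ± 0.09, adjusted P = 0.0145) and Iigp1 (0.41 ± 0.14, adjusted P = 0.0483). Irf8, a factor of myeloid cells, was called in EE + SNA against SH Sham (0.76 ± 0.22, adjusted P = 0.0426).

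**Figure D4:**
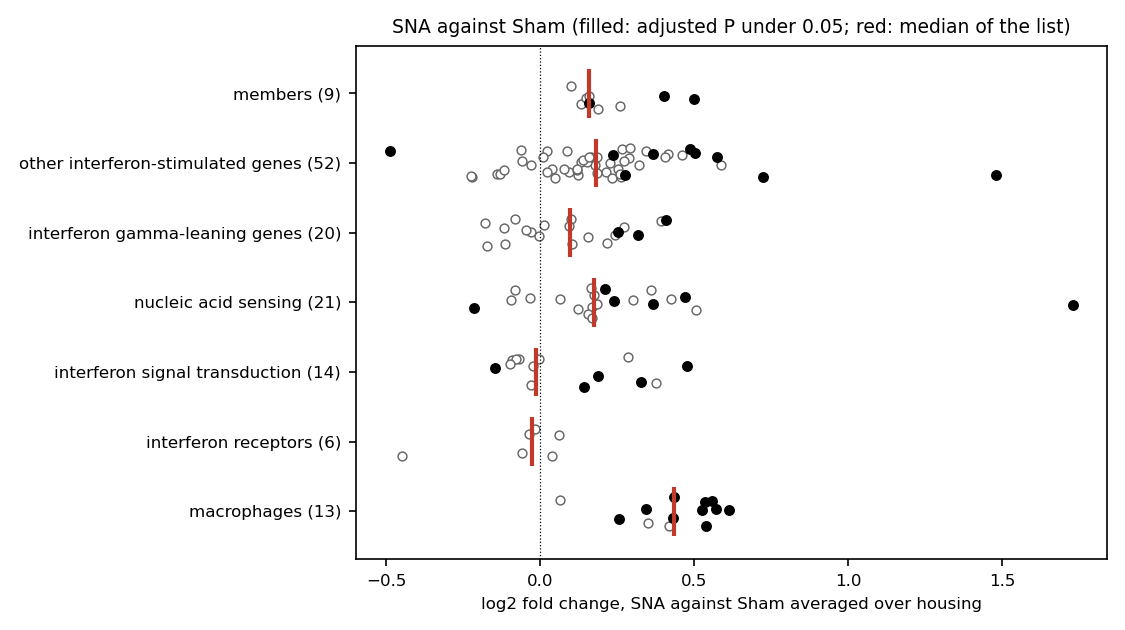
Each point is 1 tested gene, placed by its log2 fold change in SNA against Sham averaged over housing, in rows by list with the number of tested genes in brackets. Filled points have an adjusted P-value under 0.05 and red bars mark medians. All 9 genes (members, median 0.16) lie right of 0, as does the median of the other interferon-stimulated genes (0.18), while the medians of the receptors (-0.03) and of signal transduction (-0.01) lie near 0 and that of the macrophage markers at 0.44, the highest of the lists drawn. Macrophages are the only marker list drawn. Medians were higher for neutrophils (0.838), red blood cells (0.784), monocytes (0.665) and B cells (0.496), and lower for the other marker lists tested.

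Markers of macrophages moved with the injury too. Of 13 tested, 5 were called higher in SH SNA (median log2 fold change 0.44), 6 in EE + SNA (0.55) and 10 in the averaged comparison (0.44), and none was lower. The shares of all genes called in either direction in these comparisons, for this and the other marker lists below, were 11.2%, 12.4% and 21.1%. Of the 16238 genes, 970, 1122 and 1757 were called higher and 847, 898 and 1676 lower, in the same order. Their summed level was 156 to 176 CPM in SH Sham, 192 to 257 in SH SNA, 159 to 204 in EE Sham and 217 to 332 in EE + SNA, with none of the 13 at 0 in any group. EE + SNA replicate 3 was the highest of its group for macrophage, monocyte and neutrophil markers, and its neutrophil markers summed to 794 CPM, against 81.3 to 346 in the other groups. That pool was also highest for red blood cell, T and NK cell, glia, endothelial, fibroblast and sensory neuron markers. For B cell and plasmacytoid dendritic cell markers, EE + SNA replicate 1 was highest. Rsad2 had its highest value in EE + SNA replicate 3, and without that pool Rsad2, Ifit1 and Stat2 were still the 3 genes called in EE + SNA. Plasmacytoid dendritic cells, known as strong producers of type I interferon, had 8 listed markers with a summed level of 217 to 279 CPM, of which Pacsin1, a gene that neurons also express, gave 207 CPM on average. Of the more particular ones, Siglech had 1 to 12 reads and Ccr9 0 to 6 reads per pool. Of the 5 tested, none was called higher and 1 was called lower after SNA. T and NK cell markers summed to between 1.18 and 4.35 CPM, and none of the 10 had enough reads to be tested. Red blood cell markers summed to 119 to 186 CPM in SH Sham, 193 to 527 in SH SNA, 115 to 318 in EE Sham and 180 to 621 in EE + SNA, and of 4 tested, 2 were called higher in SH SNA (median log2 fold change 0.99), 3 in EE + SNA (1.17) and 0 in the averaged comparison. Of 4 monocyte markers, 1 was called higher in SH SNA (median 0.63) and 2 in EE + SNA (1.09), and of 9 neutrophil markers 0 and 1 (medians 0.76 and 1.38). In EE + SNA against SH Sham, 2 of 6 fibroblast and 2 of 6 endothelial markers were called higher, and 0 of each in SH SNA against SH Sham. EE + SNA compared directly with SH SNA called none of either list, though 3 endothelial markers passed the unadjusted threshold. Markers of satellite glia and Schwann cells were called higher in 6 of 8 in the averaged comparison, and those of sensory neurons lower in 4 of 10. The part of any of these cell types in the changes of the 9 genes was not tested.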

How the data were processed

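The authors aligned paired 100-cycle reads from 12 TruSeq mRNA libraries to mm10 with TopHat2 and deposited raw read counts per gene from HTSeq and, in a separate table, FPKM values. Versions in the submitters' processing notes are TopHat2 2.0.12, Bowtie2 2.2.3, SAMtools 0.1.19 and HTSeq 0.6.0. HTSeq left out 46.7 to 47.6% of its total as outside annotated features and 8.49 to 9.28% as not uniquely aligned, and these lines stayed out of library sizes. Whether strand was used in counting is not given in the sources used here.

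From the deposited counts, genes were kept by filterByExpr (minimum count 10), scaled by TMM and tested two-sided with edgeR 4.0.16 (limma 3.58.1, R 4.3.3), by quasi-likelihood on the 6 pools compared, or on all 12 pools for averaged effects and the interaction. P-values were adjusted by Benjamini-Hochberg over 16238 genes, and standard errors are the log2 fold change over the square root of F. The deposited FPKM values were used for levels between genes and, with limma on log2(FPKM + 1) or log2(FPKM + 0.1), as alternatives, beside DESeq2 1.42.0, edgeR's likelihood ratio test, other filters and scaling, a replicate block, 1 fit of all samples, and each pool left out. The code was tested on simulated data. Replicates of a group differed by more than counting noise (chi-square per degree of freedom 3.9 to 8.76), and p-values reflect the spread between pools of 2 mice.

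The named genes are the 9 genes, Atf3, the 5 genes that follow the mean of the 9 most closely, and, from each pathway list, those called in SH SNA or EE + SNA against SH Sham or in the averaged comparison, up to 8 by P-value. Zbtb16, the interferon genes with reads, Ifnar1, Ifnar2 and the plasmacytoid dendritic cell markers were named outside this rule, after their values were seen, and overlapping genes or near-copies for their position. The result of 1 gene of the signal transduction list is not reported here. Members and lists were chosen with earlier results of these data known. The labels number replicates 1 to 3 in each group. The correlation of deviations between same-numbered pools was above 0.1 in all 3 pairs in EE Sham against SH Sham alone (0.133 to 0.339), and it was 0.0528 to 0.121 in EE + SNA against SH SNA. Between differently numbered pools it was -0.333 to 0.201 in the first of these, which overlaps, and -0.129 to 0.0381 in the second, which does not. Gene positions are from GENCODE on GRCm38 and promoters from RefSeq. Python 3.11.15 and matplotlib 3.10.9 drew the figures.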

Additional observations from a re-analysis of the deposited data

How the results depend on the processing

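Of 1215 values of the 9 genes under alternatives, 1142 kept their direction and their side of the adjusted threshold, 24 passed it in addition, 14 lost it and 35 changed sign, all of the last for values that were not called; the cause was not tested. Called genes numbered 1 rather than 2 in SH SNA with all 12 samples in 1 fit but 3 in DESeq2, the likelihood ratio test and without a filter (Oasl2 added) and 3 in limma on log2(FPKM + 0.1) (Isg15 and Ifit3 added, Rsad2 lost), 1 rather than 0 in EE + SNA against EE Sham by the likelihood ratio test and without a filter (Rsad2), and 1 rather than 0 for the interaction without a filter (Ifit1, adjusted P = 0.0495). At the unadjusted threshold, dropping the filter gave 1 for EE Sham against SH Sham, 2 for EE averaged over surgery and 3 for the interaction; the interaction gave 0 with library size only, DESeq2, the likelihood ratio test and both limma fits, and EE + SNA gave 1 against SH SNA with all 12 samples in 1 fit and 1 against EE Sham in DESeq2. For Ifit3 in EE + SNA against SH Sham, limma gave -0.011 (FPKM + 1) and -0.013 (FPKM + 0.1). With the replicate block, called genes numbered 2 in SH SNA, 2 in EE + SNA against SH Sham (Rsad2 lost) and 4 in the averaged comparison (Oasl2 added, adjusted P = 0.0484), and the other comparisons called 0; in EE Sham against SH Sham, where alone all same-numbered pairs correlated above 0.1, for all genes the block raised the count from 1 to 28. Other counts over all genes moved by over 1.5 times with the setting: 0 to 49 in EE Sham against SH Sham, 0 to 18 in EE + SNA against SH SNA, 355 to 1697 in EE + SNA against EE Sham (774 as reported), 0 to 129 for EE averaged and 0 to 78 for the interaction, the highest each time without a filter, and down to 1207 from 1817 in SH SNA and 1167 from 2020 in EE + SNA against SH Sham when a pool was left out. Counts at the unadjusted threshold over all genes ranged from 197 to 881 in EE Sham, 321 to 1101 in EE + SNA against SH SNA, 475 to 1226 for EE averaged and 219 to 849 for the interaction. With each pool left out in turn, genes called ranged from 1 to 3 in SH SNA, 2 to 3 in EE + SNA against SH Sham, 0 to 2 against EE Sham and 2 to 4 averaged over housing, and genes past the unadjusted threshold from 4 to 7 in SH SNA, 0 to 2 in EE Sham, 0 to 2 in EE + SNA against SH SNA, 1 to 4 against EE Sham, 4 to 8 averaged over housing, 1 to 2 for EE averaged and 0 to 4 for the interaction. The log2 fold changes that changed sign when a pool was left out ranged, for EE Sham against SH Sham, from -0.135 to 0.261 (Ifit1), -0.013 to 0.205 (Ifit3), -0.107 to 0.073 (Oasl2), -0.045 to 0.319 (Rsad2), -0.100 to 0.579 (Isg15), -0.097 to 0.056 (Irf9) and -0.207 to 0.282 (Irf7), for EE + SNA against SH Sham, from -0.034 to 0.075 (Ifit3), for EE + SNA against SH SNA, from -0.116 to 0.001 (Isg15), for EE + SNA against EE Sham, from -0.185 to 0.034 (Ifit3), -0.280 to 0.180 (Bst2), -0.171 to 0.507 (Isg15) and -0.140 to 0.349 (Irf7), for EE averaged over surgery, from -0.061 to 0.169 (Bst2), -0.073 to 0.266 (Isg15) and -0.162 to 0.083 (Irf7), and for the interaction, from -0.143 to 0.220 (Rsad2), -0.624 to 0.054 (Isg15), -0.074 to 0.043 (Stat2) and -0.397 to 0.092 (Irf7). Isg15, with 41 to 144 reads a pool, and Irf7, with 56 to 180, had the fewest reads, and counting error alone gave coefficients of variation of 10.2 to 11.8% and 9.08 to 10.4%.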
